A study of Homo sapiens with 4 samples.

Results

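Tubulins, stathmins and the structural microtubule proteins of neurons were followed in SK-N-BE(2) cells, a human MYCN-amplified neuroblastoma line, after knockdown of SAPCD2. The members were the protein-coding genes for α- and β-tubulin, STMN1 to STMN4, MAP1A, MAP1B, MAP2, MAP4, MAP6, MAPT, DCX, DCLK1, the neurofilament genes NEFL, NEFM and NEFH, INA, PRPH and GAP43, taken by their GENCODE symbols and joined to the count table by Ensembl identifier. Of 64252 genes in the table, 37 were members, and 31 of these had enough counts to be tested. A further gene that the rule names, TUBA3FP, was not analysed here. RNA-seq was performed on cells stably infected with lentivirus carrying a scrambled shRNA (sh-Scb) or sh-SAPCD2 and selected with puromycin, with 2 libraries per group. The study's heatmap labels the knockdown columns as its shRNA #1, so the data describe 1 cell line and, as far as that label says, 1 hairpin. Nothing in the labels says that libraries of a group came from separate cultures, so the p-values measure only the spread between these libraries.

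Microtubules are hollow polymers of α- and β-tubulin dimers, and each tubulin is made from several genes whose proteins, the isotypes, differ mainly at the C-terminal tail. Dividing cells use them for the spindle, whereas neurons pack them into axons and dendrites, where microtubule-associated proteins (MAPs) and doublecortin proteins stabilize them and stathmins bind free dimers and favor disassembly. Neurofilaments are the intermediate filaments of axons and rise as neurons mature, and β3-tubulin, doublecortin and neurofilament proteins are common markers of the neuronal character of neuroblastoma cells.

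In SAPCD2-knockdown cells the neurofilament genes rose together and the α- and β-tubulin genes did not move as a block. NEFH, NEFM, NEFL and INA were 1.39- to 2.16-fold higher, MAP1A was 2.23-fold higher and STMN4 was 2.59-fold higher. The other neuronal markers named above did not rise with them. TUBB3 was lower in both knockdown libraries and DCX overlapped between groups, and neither was called in the main analysis. PRPH was not called either. TUBA4A, a minor α-tubulin here, was 3.22-fold higher, while the abundant TUBA1B and TUBB and the minor TUBA1C were 1.51- to 1.95-fold lower and TUBA1A was not called. STMN1 and STMN2, the most abundant stathmins, were 1.36- and 1.42-fold lower. Among the 31 tested members, edgeR's quasi-likelihood test called 10 higher (32.3%) and 5 lower (16.1%) at a Benjamini-Hochberg adjusted p under 0.05, against 12.4% higher and 12.5% lower among all 18779 tested genes. With an absolute log2 fold change over 1 in addition, the threshold for a DEG in the study, 4 members were higher (12.9%) and 0 lower, against 4.69% and 5.15% of all tested genes. DESeq2 likewise gave 0 lower members at that threshold, the lowest log2 fold change was −0.96, and 6 members were lower at an unadjusted p under 0.05 in the edgeR test. The median log2 fold change was 0.186 over the tested members and 0.0168 over all tested genes.

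The libraries held 25347900 to 31850997 counts, and 3 counts corresponded to 0.0955 to 0.119 CPM (counts scaled to library size, after TMM, a normalization that adjusts library sizes for composition). This floor covers counting error only. SAPCD2 itself had 83.6 and 82.2 CPM in the sh-Scb libraries and 35.4 and 52.5 CPM in the sh-SAPCD2 libraries, a log2 fold change of −0.91 (SE 0.193, adjusted p = 0.0206 by edgeR). Of 9 adrenergic neuroblast markers, 9 were tested, and their summed level was 5255 to 5373 CPM in control and 7596 to 9372 CPM in knockdown libraries. Of 9 markers of mesenchymal-type neuroblastoma cells or fibroblasts, 7 were tested, with 1 higher (FOSL1) and 1 lower (FN1). Among all tested genes 12.4% were higher and 12.5% lower. These 9 markers summed to 325.8 to 345.7 CPM in control and 294.2 to 363 CPM in knockdown libraries, and PRRX1 had 0 counts. Schwann cell markers summed to 2.54 to 3.91 CPM in control and 5.02 to 7.29 CPM in knockdown libraries, with SOX10 and CDH19 at 0 counts. The part of these marker levels in the results was not tested. In bulk RNA, fewer cells of a kind and less RNA per cell cannot be told apart.

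The knockdown libraries differed from each other along the GC content of the transcripts, which bears on many members. Over the 31 tested members, the log2 ratio of sh-SAPCD2 library 2 to library 1 had a Pearson correlation of 0.783 with the GC content of the canonical transcript, against 0.0604 for the ratio between the sh-Scb libraries. These are descriptions across genes that share libraries. All tested genes with a GC value (17467) gave 0.45 and −0.0226. Of the 15 members with at least 55% GC, 13 were higher in library 2 (median log2 ratio 0.411), and of the 6 members under 45% GC, 0 were (median −0.295). A fit corrected for GC content and length is therefore given below wherever it changes a call.

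**Figure D1:**
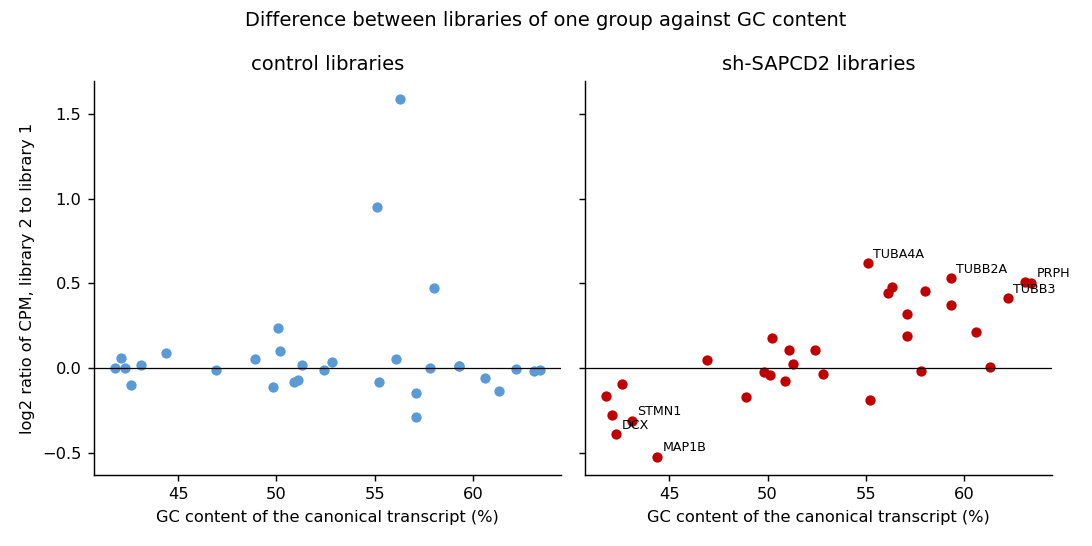
The log2 ratio of CPM between library 2 and library 1 of a group (vertical axis) is plotted against the GC content of the canonical transcript in percent (horizontal axis), with 1 point for each of the 31 tested members, for the sh-Scb group on the left and the sh-SAPCD2 group on the right. Control points lie along 0 apart from a few low genes, and sh-SAPCD2 points climb from DCX and MAP1B at low GC to TUBB3 and PRPH at high GC.

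The start of the coding sequence is the stretch on which the levels of tubulin mRNAs are known to depend. Excess tubulin dimers trigger decay of tubulin mRNAs during translation, and the factor TTC5 recognizes the first residues of the new protein on the ribosome. The first 24 coding bases of 8 tubulin genes are shown because TUBA1A, TUBA1B and TUBA1C, which share them, were called differently. Capitals mark the first 4 codons, in exon sequence of the canonical GENCODE 44 transcripts on hg38, written along the coding strand.
TUBA1A: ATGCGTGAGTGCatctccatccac
TUBA1B: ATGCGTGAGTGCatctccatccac
TUBA1C: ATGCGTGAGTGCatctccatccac
TUBA4A: ATGCGTGAATGCatctcagtccac
TUBB: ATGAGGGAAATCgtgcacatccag
TUBB2A: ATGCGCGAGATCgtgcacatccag
TUBB2B: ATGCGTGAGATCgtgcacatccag
TUBB4A: ATGCGGGAGATCgtgcacctgcag
The 24 bases were identical in TUBA1A, which was not called, and in TUBA1B and TUBA1C, which were lower. TUBB3 and TUBB6, not shown, shared another such start and moved the same way, at log2 differences of −0.27 and −0.35. Neither was called in the main analysis. Any part of the start in these changes was not tested. All 10 β-tubulin genes and 8 of the 10 α-tubulin genes that the rule names encode the start typical of their class, the exceptions being TUBA3FP and TUBA4B.

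In the α-tubulin cluster on chromosome 12, TUBA1B and TUBA1C fell and TUBA1A was not called. TUBA1B (hg38 chr12:49127782-49131397, minus strand), a widely expressed isotype, had 1946 and 1930 CPM in control and 1232 and 1328 CPM in knockdown libraries. TUBA1C (chr12:49188736-49274600, plus strand), another widely expressed isotype, had 90.8 and 97.2 CPM in control and 45.2 and 51.1 CPM in knockdown libraries. For both genes each knockdown library lay below each control library. The log2 fold change of TUBA1B was −0.60 (SE 0.09, adjusted p = 0.00781 by edgeR), and that of TUBA1C was −0.96 (SE 0.119, adjusted p = 0.00498 by edgeR). TUBA1A (chr12:49184686-49189080, minus strand), the main α-tubulin of developing neurons, had 1582 and 1603 CPM in control and 1714 and 1743 CPM in knockdown libraries. Its groups did not overlap, but the difference of 0.12 on the log2 scale (SE 0.0845) did not pass the test (adjusted p = 0.344 by edgeR).

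TUBA4A, an isotype of mature neurons and platelets, had 3.01 and 5.82 CPM in control and 11.2 and 17.2 CPM in knockdown libraries. All knockdown values lay above the control values, although the libraries of each group differed by more than for the abundant tubulins. Its log2 fold change was 1.69 (SE 0.36, adjusted p = 0.0214 by edgeR), and the adjusted p was 0.0805 without the filter on low counts. TUBA3D (1.05 to 1.47 CPM) and TUBA8 (0.217 to 0.654 CPM) overlapped between groups. TUBA3C had 0 counts in each library, which allows up to 3 counts, and TUBA3E had 0 and 0 counts in control and 6 and 6 in knockdown libraries. TUBA4B had 2 counts in 1 control library and 0 in the others. TUBA4A overlaps STK16 on the opposite strand, and TUBA1A, TUBA1B and TUBA1C overlap one another or TUBA1B-AS1 in the same way. Whether the counting used strand is not given in the sources used here, so these overlaps leave the assignment of some reads uncertain. The same holds beyond the α-tubulins, as 19 of the 31 tested members and 8 of the 15 called overlap another gene with over 3 counts. TUBB overlaps MDC1 on the opposite strand. TUBB3, GAP43, MAP6 and MAPT each overlap a gene on the same strand, where strand would not separate the reads.

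Counted per kilobase of transcript, the order of the main α-tubulins switched. TUBA1B led in control libraries with 54.6% ± 0.44 (SD, n = 2) of α-tubulin reads per kilobase, against 43.7% ± 0.312 for TUBA1A. In knockdown libraries TUBA1A held 56.0% ± 1.09 and TUBA1B 42.6% ± 0.924. The ratio of TUBA1A to TUBA1B counts was 0.813 and 0.83 in control and 1.39 and 1.31 in knockdown libraries, so the groups were separate in this ratio. TUBA4A went from 0.0987% to 0.374% of the class and TUBA1C went from 1.53% to 0.923%. The summed level of the class was 3630 ± 10.6 CPM in control and 3073 ± 97.6 CPM in knockdown libraries (SD, n = 2). Shares and sums carry no test here.

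**Figure D2:**
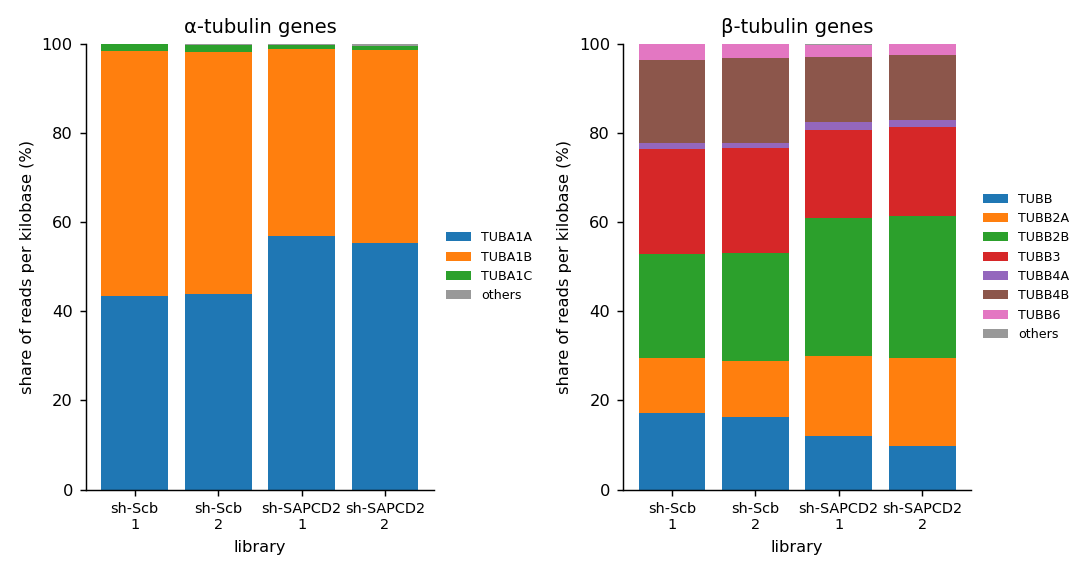
Stacked bars show the share of each isotype, in percent of reads per kilobase of transcript, among the α-tubulin genes (left) and the β-tubulin genes (right) in each of the 4 libraries. The TUBA1A segment grows from 43.7% on average in sh-Scb to 56.0% in sh-SAPCD2, and the TUBB2A and TUBB2B segments widen while that of TUBB narrows.

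Among the β-tubulins only TUBB and TUBB4A passed the test in the main analysis. TUBB (chr6:30717435-30725538), the widely expressed class I isotype, had 314.7 and 299.9 CPM in control and 189.3 and 203.8 CPM in knockdown libraries. Both knockdown values were lower, with a log2 fold change of −0.64 (SE 0.0983, adjusted p = 0.00814 by edgeR). TUBB4A, an isotype of brain, had 19.4 and 18.7 CPM in control and 26.9 and 31.1 CPM in knockdown libraries. Here both knockdown values were higher, with a log2 fold change of 0.61 (SE 0.142, adjusted p = 0.0279 by edgeR), and the adjusted p was 0.0716 without the filter on low counts.

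The neuronal isotypes TUBB2A and TUBB2B were higher in both knockdown libraries, but mostly in library 2. TUBB2A had 148 and 149.4 CPM in control and 182.2 and 263 CPM in knockdown libraries, a log2 difference of 0.58 (SE 0.177, adjusted p = 0.0594 by edgeR). TUBB2B had 327.1 and 339.6 CPM in control and 372.7 and 507.1 CPM in knockdown libraries, a log2 difference of 0.40 (SE 0.156, adjusted p = 0.111 by edgeR). With the correction for GC content and length both were called, at log2 fold changes of 0.37 and 0.26 (adjusted p = 0.007 and 0.0416 by edgeR), as they were by DESeq2 (adjusted p = 0.00504 and 0.0449). TUBB3, the neuron-specific class III isotype, had 296.6 and 294.9 CPM in control and 210.8 and 280.4 CPM in knockdown libraries. TUBB4B, a widely expressed isotype, had 215.3 and 217 CPM in control and 144.4 and 186.8 CPM in knockdown libraries. For both, all knockdown values lay below the control values without passing the test, at log2 differences of −0.27 (SE 0.148, adjusted p = 0.232 by edgeR) and −0.38 (SE 0.14, adjusted p = 0.0956 by edgeR). TUBB6 was at 31.8 to 47.8 CPM, also lower in each knockdown library (adjusted p = 0.146 by edgeR). Corrected for GC content and length, TUBB3, TUBB4B and TUBB6 were called lower, at log2 fold changes of −0.55, −0.59 and −0.50 (adjusted p = 0.000364, 0.000283 and 0.00441 by edgeR). TUBB1, TUBB8 and TUBB8B had 0 to 13 counts per library and were not tested.

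Within the β-tubulins the share of reads per kilobase moved from TUBB, TUBB3 and TUBB4B to TUBB2A and TUBB2B. TUBB held 16.7% ± 0.545 in control and 10.9% ± 1.56 in knockdown libraries (SD, n = 2). TUBB2B held 23.7% ± 0.66 and 31.4% ± 0.698, and TUBB2A held 12.6% ± 0.0976 and 18.8% ± 1.21. TUBB3 went from 23.7% ± 0.0642 to 19.8% ± 0.119, and TUBB4B from 18.9% ± 0.13 to 14.6% ± 0.197. In control libraries the level per kilobase was the same for TUBB2B and TUBB3 (173 CPM per kilobase each), followed by TUBB4B (138), TUBB (122) and TUBB2A (92). In knockdown libraries TUBB2B (229) stood above TUBB3 (144), TUBB2A (138), TUBB4B (106) and TUBB (78.2), all in CPM per kilobase. The ratio of TUBB2A plus TUBB2B to TUBB plus TUBB4B counts was 0.897 and 0.946 in control and 1.66 and 1.97 in knockdown libraries. The sum over the class was 1369 and 1363 CPM in control and 1159 and 1512 CPM in knockdown libraries, so these groups overlapped.

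Several tubulin transcripts are nearly the same, and reads of one can be counted for another. The coding sequences of TUBB2A and TUBB2B were 98.1% identical, and those of TUBA1A and TUBA1B 97.2%. Of all stretches of 150 bases in the transcript, 48.7% of TUBB2A, 41.6% of TUBB2B, 19.1% of TUBA1B, 8.01% of TUBA1A and 7.22% of TUBA1C also occurred unchanged in another tubulin gene or pseudogene. Values of these genes are therefore uncertain. How far is not known, since the handling of reads that match several genes is not given. TUBA4A, TUBB4A, TUBB4B and TUBB6 had 0 such stretches. With counts summed, TUBA1A, TUBA1B and TUBA1C together had a log2 difference of −0.25 (SE 0.0837, adjusted p = 0.0799 by edgeR), and TUBB2A and TUBB2B together 0.46 (SE 0.161, adjusted p = 0.0869 by edgeR).

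**Figure D3:**
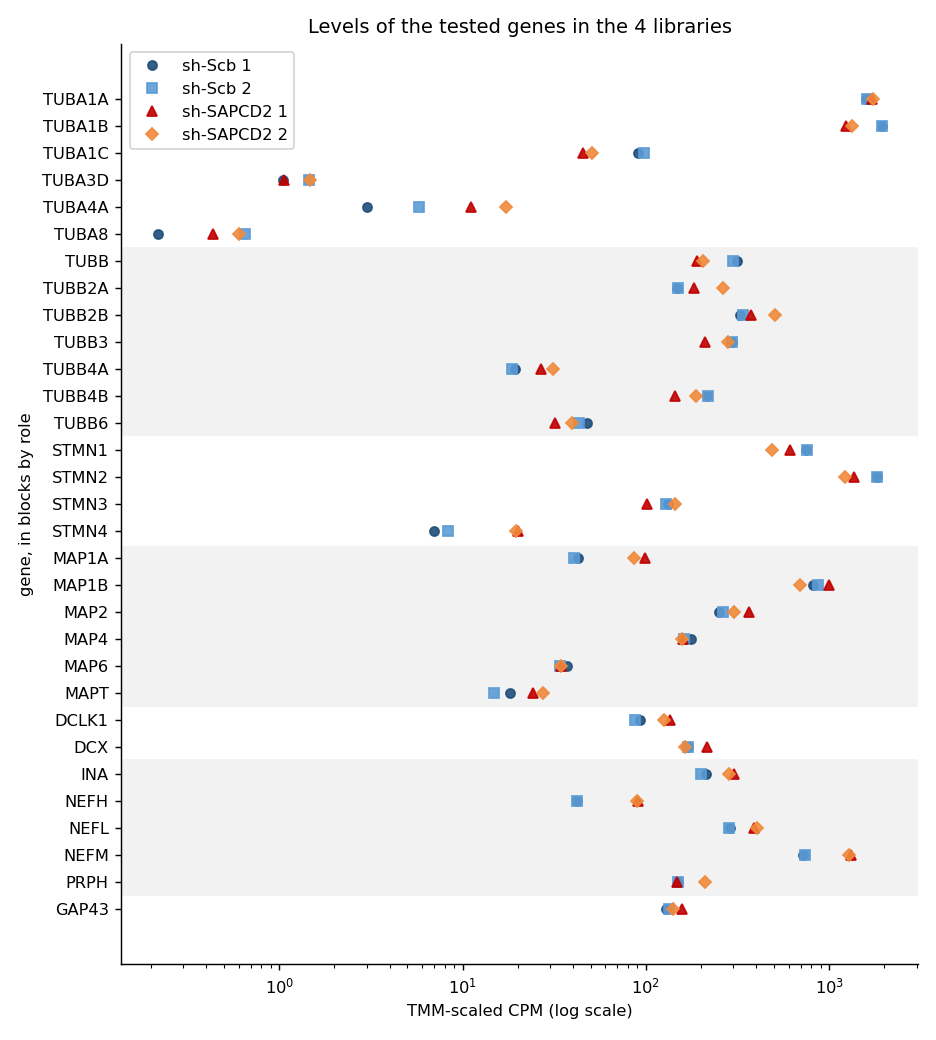
TMM-scaled CPM on a log axis (horizontal) is plotted for each of the 31 tested members (vertical, in blocks by role), with 1 point per library and a color and shape for each library. Knockdown points of NEFM, NEFH, MAP1A and STMN4 sit to the right of the control points with little spread, those of TUBA1B, TUBA1C, TUBB and STMN2 to the left, and those of MAP1B and PRPH spread apart.

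The stathmins bind tubulin dimers and keep them from polymerizing. STMN2, the stathmin of growth cones, was the most abundant per kilobase, with 1823 and 1825 CPM in control and 1359 and 1214 CPM in knockdown libraries. STMN1, known from dividing cells, had 742.7 and 752.4 CPM in control and 608.6 and 490.2 CPM in knockdown libraries. Knockdown values of both lay below all control values, with log2 fold changes of −0.50 for STMN2 (SE 0.0964, adjusted p = 0.0155 by edgeR) and −0.44 for STMN1 (SE 0.125, adjusted p = 0.0472 by edgeR). Without the filter on low counts the adjusted p of STMN1 was 0.121. STMN4, a stathmin of the nervous system, moved the other way, from 7.02 and 8.29 CPM to 20.1 and 19.5 CPM. Its groups were far apart, and its log2 fold change was 1.37 (SE 0.162, adjusted p = 0.00453 by edgeR). STMN3, also neuronal, had 131.3 and 129.4 CPM in control and 101.1 and 143.8 CPM in knockdown libraries. These groups overlapped (log2 difference −0.09, SE 0.173, adjusted p = 0.737 by edgeR), and with the correction for GC content and length STMN3 was called lower at −0.41 (adjusted p = 0.00155 by edgeR). The 4 genes summed to 2710 ± 8.49 CPM in control and 1978 ± 157 CPM in knockdown libraries (SD, n = 2), and STMN2 made up 62.3% and 60.4% of their reads per kilobase.

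Of the MAPs, MAP1A and MAPT were called. MAP1A, a MAP of mature neurons, had 42.7 and 40.4 CPM in control and 98.6 and 86.7 CPM in knockdown libraries, clearly separate groups with a log2 fold change of 1.16 (SE 0.12, adjusted p = 0.00343 by edgeR). MAPT, which encodes the axonal protein tau, had 18.1 and 14.9 CPM in control and 24.1 and 27.5 CPM in knockdown libraries. Both knockdown values were higher, with a log2 fold change of 0.65 (SE 0.163, adjusted p = 0.0342 by edgeR), and the adjusted p was 0.0926 without the filter on low counts. MAP1B, a MAP of growing axons and the most abundant MAP here, had 817.8 and 868.9 CPM in control libraries. Its knockdown libraries, at 1003 and 697 CPM, fell on both sides of the controls (log2 difference 0.01, SE 0.174, adjusted p = 0.971 by edgeR). The dendritic MAP2 had 250.8 and 261.9 CPM in control and 364.7 and 300.8 CPM in knockdown libraries, a log2 difference of 0.38 (SE 0.121, adjusted p = 0.0697 by edgeR). MAP2 was called by DESeq2 (adjusted p = 0.0315) and with the correction for GC content and length (0.40, adjusted p = 0.0014 by edgeR). MAP4, the MAP of most non-neuronal cells, had 175.7 and 162.3 CPM in control and 159.3 and 156.7 CPM in knockdown libraries (adjusted p = 0.506 by edgeR). MAP6, which makes microtubules stable in the cold, was at 34 to 37.4 CPM and overlapped between groups.

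In the doublecortin family DCLK1 rose. This kinase with doublecortin domains had 93.3 and 86.9 CPM in control and 134.7 and 126.2 CPM in knockdown libraries, with no overlap and a log2 fold change of 0.53 (SE 0.104, adjusted p = 0.0164 by edgeR). DCX, the marker of migrating neurons, had 170.1 and 170.2 CPM in control and 214.6 and 163.6 CPM in knockdown libraries, so its groups overlapped (log2 difference 0.15, SE 0.145, adjusted p = 0.476 by edgeR). GAP43, a protein of growth cones, had 128.3 and 133.2 CPM in control and 157.5 and 140.1 CPM in knockdown libraries, higher in both but not past the test (log2 difference 0.19, SE 0.107, adjusted p = 0.248 by edgeR).

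Of the 5 neuronal intermediate filament genes, 4 rose. NEFM, the medium neurofilament subunit, had 720.9 and 738.7 CPM in control and 1321 and 1290 CPM in knockdown libraries, a log2 fold change of 0.84 (SE 0.0876, adjusted p = 0.00343 by edgeR). NEFH, the heavy subunit of mature axons, had 41.8 and 41.9 CPM in control and 90.9 and 89.7 CPM in knockdown libraries, a log2 fold change of 1.11 (SE 0.106, adjusted p = 0.00313 by edgeR), or 0.96 with the correction for GC content and length, which is under the DEG threshold. For both subunits the libraries of a group nearly coincided and the groups were far apart. NEFL, the light subunit on which filaments are built, had 286.5 and 284 CPM in control and 391 and 404.8 CPM in knockdown libraries, a log2 fold change of 0.48 (SE 0.0911, adjusted p = 0.0153 by edgeR). INA, which encodes α-internexin, the filament protein of early neurons, had 212 and 200.6 CPM in control and 301 and 284.9 CPM in knockdown libraries, a log2 fold change of 0.51 (SE 0.0968, adjusted p = 0.0155 by edgeR). Neither gene overlapped between groups. PRPH, which encodes peripherin of peripheral neurons, had 150 and 149.1 CPM in control and 148.3 and 210.2 CPM in knockdown libraries, so only library 2 stood above the controls (log2 difference 0.26, SE 0.171, adjusted p = 0.304 by edgeR).

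The subunits rose by unequal amounts. The ratio of NEFM to NEFL counts was 2.52 and 2.6 in control and 3.38 and 3.19 in knockdown libraries, and that of NEFH to NEFL was 0.146 and 0.147 in control and 0.232 and 0.222 in knockdown libraries. Summed over the 5 filament genes, the level was 1412 ± 2.12 CPM in control and 2266 ± 19.8 CPM in knockdown libraries (SD, n = 2), and NEFM made up 48.5% and 55.2% of their reads per kilobase. NEFM overlaps an unnamed gene and INA overlaps NT5C2, each on the opposite strand, and NEFH and NEFL overlap no gene with more than 3 counts.

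**Figure D4:**
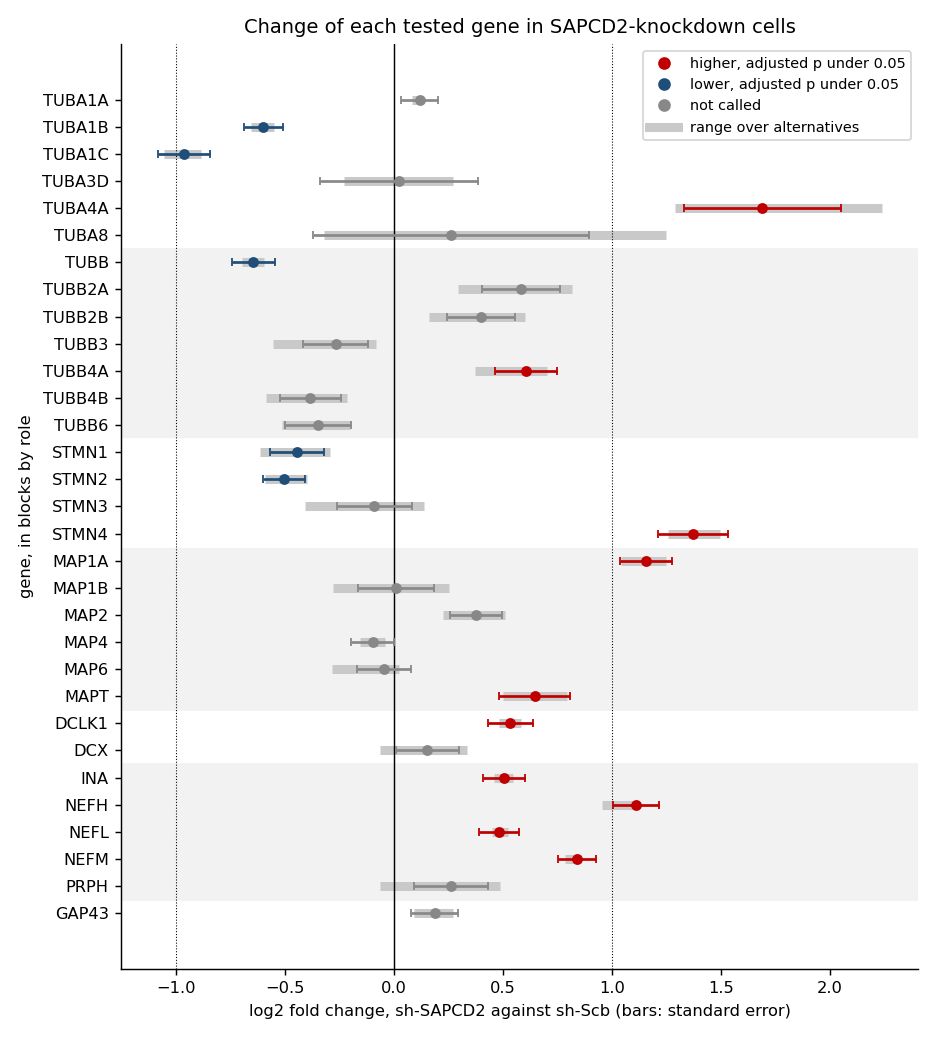
Log2 fold changes of sh-SAPCD2 against sh-Scb (horizontal axis, points with bars of 1 SE) are shown for the 31 tested members in blocks by role, colored by the call, with a grey band for the range over the alternative settings and dotted lines at an absolute log2 fold change of 1. NEFH, MAP1A, STMN4 and TUBA4A are centered beyond 1, TUBA1C is centered just short of −1, and the bands of DCX, MAP1B, MAP6, PRPH, STMN3, TUBA3D and TUBA8 cross 0.

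The groups of 24 of the 31 tested members did not overlap (77.4%), against 67.0% of all tested genes. MAP1A, NEFH, NEFM and STMN4 were called in each of the 14 alternatives and TUBA1C in each of its 13. Without sh-Scb replicate 1 or without sh-Scb replicate 2, 9 members lost the call. In such a fit the lone library is assumed to vary like the other group, here the knockdown libraries that differed along GC content. The 9 members had adjusted p-values by edgeR of 0.0901 and 0.0868 for TUBA1B, 0.129 and 0.0799 for TUBB, 0.204 and 0.263 for TUBB4A, 0.172 and 0.182 for STMN2, and 0.276 and 0.31 for STMN1. The same fits gave 0.0927 and 0.347 for MAPT, 0.189 and 0.307 for DCLK1, 0.214 and 0.313 for INA, and 0.277 and 0.297 for NEFL, each with its direction unchanged. In these fits 5 members were higher and 1 was lower, and without a knockdown library, where the spread comes from the closely matching controls, 16 or 17 were higher and 7 or 9 lower.

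Pathway genes outside the rule were read as 6 lists. Their counts of calls stand against 12.4% higher and 12.5% lower among all tested genes. Of 22 tested enzymes that modify tubulin, 4 were higher and 7 lower, with a median log2 fold change of −0.267. VASH1 and VASH2, which remove the C-terminal tyrosine of α-tubulin, rose, VASH1 from 29.8 and 32.4 CPM to 111.9 and 133 CPM (log2 fold change 1.98, SE 0.134, adjusted p = 0.00201 by edgeR) and VASH2 from 21.3 and 20.9 CPM to 45.2 and 37 CPM (0.96, SE 0.148, adjusted p = 0.00847 by edgeR). TTL, the ligase that puts the tyrosine back, rose as well, from 199 and 192.2 CPM to 346.1 and 318.9 CPM (0.77, SE 0.0985, adjusted p = 0.00556 by edgeR). TTLL1, the catalytic subunit of a tubulin polyglutamylase, fell from 13 and 12.6 CPM to 3.08 and 2.71 CPM (−2.15, SE 0.186, adjusted p = 0.00263 by edgeR). TPGS2, a subunit of the same complex, fell from 62.4 and 64.9 CPM to 30.1 and 27 CPM (−1.16, SE 0.123, adjusted p = 0.00358 by edgeR). None of these 5 genes overlapped between groups. They were named for the smallest p, and 67.0% of all tested genes likewise did not overlap.

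Of 35 other tested microtubule-binding proteins, 8 were higher and 7 lower (median 0.0739), against 12.4% and 12.5% of all tested genes. CRMP1 and DPYSL5, collapsin response mediators that bind tubulin, fell from 374 and 362.6 to 95.3 and 111.3 CPM and from 300.7 and 292.3 to 133.2 and 161.3 CPM (adjusted p = 0.00201 and 0.00471 by edgeR). JPT1 rose from 133.3 and 127.7 to 320.7 and 384 CPM (adjusted p = 0.00263 by edgeR). DCLK2, the relative of DCLK1, rose from 71.3 and 71.8 to 139.7 and 156.7 CPM, and CLIP2, a plus-end protein, from 40.5 and 43.4 to 95.8 and 121.7 CPM (adjusted p = 0.00335 and 0.00369 by edgeR). Of 10 other tested intermediate filament genes, 3 were higher and 3 lower (median −0.175). VIM, which encodes vimentin of immature and mesenchymal cells, fell from 1197 and 1179 to 518.1 and 554.6 CPM (adjusted p = 0.0023 by edgeR), while SYNM, which encodes synemin, rose from 57.3 and 55.5 to 95.5 and 98.5 CPM (adjusted p = 0.00581 by edgeR). The lamin genes LMNB1 and LMNB2 fell by 0.64 and 1.05 on the log2 scale (adjusted p = 0.00831 and 0.00811 by edgeR), and KRT19, at 0.836 to 3.4 CPM, rose by 1.40 (adjusted p = 0.0406 by edgeR).

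The other lists held fewer calls, to be read against 12.4% higher and 12.5% lower among all tested genes. Of 17 tested severing enzymes and kinases or scaffolds that act on microtubule proteins, 3 were higher and 2 lower (median 0.294). GSK3B, a kinase of tau and MAP1B, fell from 136.7 and 136.1 to 74.7 and 57.5 CPM, whereas CDK5R1, the activator of the tau kinase CDK5, rose from 19.2 and 19.2 to 31.8 and 40.1 CPM (adjusted p = 0.00646 and 0.012 by edgeR). The severing enzyme KATNAL1 rose by 0.92 and the scaffold MAPK8IP1 by 0.72 on the log2 scale, and FIGNL1 fell by 0.63 (adjusted p = 0.00735, 0.0171 and 0.0462 by edgeR). Of 22 tested genes for tubulin folding and mRNA autoregulation, TBCEL (0.73) and PFDN2 (0.60) were higher and 0 lower (median 0.0915, adjusted p = 0.019 and 0.0418 by edgeR). Of 13 tested genes of the γ-tubulin complex and other tubulins, 0 were higher, and TUBGCP5 (−0.77) and NEDD1 (−0.64) were lower (median −0.0353, adjusted p = 0.0278 and 0.028 by edgeR).

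**Figure D5:**
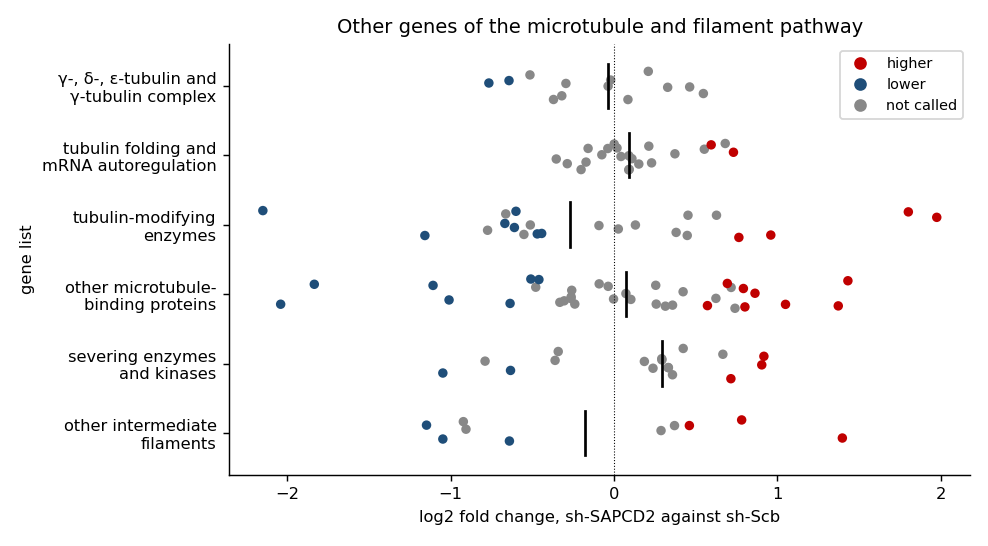
Each point is the log2 fold change (horizontal axis) of 1 tested gene of the 6 pathway lists (vertical axis, with random vertical shifts within a list), red where called higher, blue where called lower and grey where not called, and a black line marks the median of a list. The tubulin-modifying enzymes range from TTLL1 at −2.15 to VASH1 at 1.98, and 3 of the 6 medians lie below 0.

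RefSeq promoters and 3′ untranslated regions (UTRs) were read for letters of interest in this study. A strict E2F motif (TTTCCCGC, TTTGGCGC, TTTGCCGC or TTTCGCGC, on either strand, from 250 bases before to 50 after the start) was found in 1 of the 30 members with a promoter in RefSeq (GRCh38.p14), in 5.13% of 11925 tested genes and in 3.32% of 35116 promoters. The member was STMN1, with the motif at chr1:25906450-25906457, 38 bases before the start and written along the gene's strand, here with the motif in capitals.
STMN1: tgcctctgTTTGGCGCttttgtgc
For members and tested genes only the first listed promoter of each gene was read, whereas the share over all promoters counts each of them. A motif in another promoter of a member would not have been counted. The presence of letters is a description and says nothing of binding.

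The guide arm of sh-SAPCD2 #1 is shown because an earlier analysis of these data had singled out 3′ UTR letters related to the hairpin, so that the values below are no independent support of those letters. Capitals mark bases 5 to 11, the complement of TCCACCT.
sh-SAPCD2 #1 guide arm: atgaAGGTGGAatccagaggt
No tested member held TCCACCT in its 3′ UTR. The letters CCACCTA against the guide arm, and AGAGGTC and GAGGTCA against the other arm, which match the hairpin only in part, occurred in 7 of the 31 tested members (22.6%), and any of the 4 words occurred in 33.9% of 13583 tested protein-coding genes. These 7 were TUBB3, TUBB4A, DCLK1, DCX, MAP2, NEFL and STMN2, with a median log2 fold change of 0.376 against 0.152 for the other members. Over all tested protein-coding genes the medians were −0.068 with such letters and 0.088 without. The letters ACCTTCA, complementary to the seed of the guide (bases 2 to 8), occurred in DCX, INA and STMN2 (9.68% of members, against 12.5% of tested protein-coding genes). Of the 5 members called lower, STMN2 carried letters of either kind and TUBA1B, TUBA1C, TUBB and STMN1 did not. The sites of MAP2 and TUBB4A are shown in capitals with their neighbors, the first in a member that was not called and the second in one that rose.
MAP2: ctgacatcCCACCTAcaagtatg
TUBB4A: tgaggaagAGAGGTCacccctac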

How the data were processed

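RNA-seq counts were analyzed for 4 libraries of SK-N-BE(2) cells, 2 with sh-Scb and 2 with sh-SAPCD2, grouped by the labels. Per the labels and methods, the authors mapped paired-end reads (150 bp) with HISAT2 2.2.0 to hg38, ran StringTie for abundance and deposited unnormalized whole-number counts of each gene. How coverage became counts, which Ensembl release was used, whether counting used strand and what was done with reads that match several genes are not given in the sources used here. After edgeR's filter on low counts (minimum count 10, minimum total 15) and TMM scaling, 18779 genes were tested by its quasi-likelihood test (edgeR 4.0.16, R 4.3.3) with Benjamini-Hochberg adjustment, and the test was checked on simulated data. The standard error is the absolute log2 fold change divided by the root of F. Positions, lengths and GC content came from GENCODE 44, which matched 17467 tested genes. Identity was computed between coding sequences, since a protein table was not used here. The members and gene lists were chosen with earlier results of these data known.

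Every member is named, with values in each library where it was called or had a mean of at least 50 CPM, and at most 5 called genes with the smallest p are named per list. Alternatives were DESeq2 1.42.0, other scalings and filters, a loess correction (span 0.3), a replicate block, summed counts of near-identical genes and each library left out. Python 3.11.15 was used for tables and figures. Calls for single markers of the adrenergic and Schwann cell lists are not reported here.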

Additional observations from a re-analysis of the deposited data

How the results depend on the processing

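Against 10 members higher and 5 lower, leaving out a library gave 5 to 17 higher and 1 to 9 lower, with 5 and 1 in each fit lacking a control library, 16 and 7 without sh-SAPCD2 replicate 1, and 17 and 9 without sh-SAPCD2 replicate 2. DEGs among the members numbered 4 higher in each of these fits, and 0 to 1 lower, the 1 being TUBA1C. They numbered 3 higher with the correction for GC content and length, where NEFH was at 0.96, and 3 without the filter on low counts, where TUBA4A was not called. The correction for GC content and length gave 9 lower, also together with the replicate block, and 3 were lower with near-identical genes summed, where TUBA1B and TUBA1C no longer stand alone. SAPCD2 stayed at −0.91 without the filter on low counts, with an adjusted p of 0.0749 by edgeR within a range of 7.95e-06 to 0.0749 over its alternatives. Same-numbered libraries did not deviate together (r = −0.0188), so the numbers were not taken as pairs; with the replicate block 11 members were higher and 5 lower, and MAP1B changed sign (−0.0119).

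Reversals in the alternatives run were limited to members not called in the main analysis. Log2 differences of TUBA3D were −0.00753 with protein-coding genes only, −0.15 with the correction for GC content and length, −0.15 when the replicate block was added, and −0.23 to 0.27 with a library left out. PRPH was at −0.0659 with that correction and −0.066 with the block added, and at −0.0106 to 0.49 with a library left out. MAP1B was at −0.00591 with library totals, −0.0169 with protein-coding genes only, and −0.28 to 0.25 with a library left out. Leaving out a library also gave −0.32 to 1.25 for TUBA8, −0.0618 to 0.34 for DCX, −0.11 to 0.0224 for MAP6 and −0.36 to 0.14 for STMN3. Without sh-SAPCD2 replicate 1, MAP1B was called lower (−0.28, adjusted p = 0.0081) and STMN3 higher (0.14, adjusted p = 0.0396) by edgeR, and without sh-SAPCD2 replicate 2 the calls were opposite, with MAP1B higher (0.25, adjusted p = 0.0117) and STMN3 lower (−0.36, adjusted p = 0.00272). The cause was not tested. A fit that leaves out a library has a group of 1, whose spread is assumed to equal that of the other group.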

Other observations

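Some further genes, chosen after their values were seen, stand beside the tubulins. TUBBP1, a transcribed pseudogene of TUBB that shares 2.66% of TUBB's stretches of 150 bases, went from 46.3 and 44.5 CPM in control to 25.9 and 25 CPM in knockdown libraries (log2 fold change −0.83, SE 0.121, adjusted p = 0.0072 by edgeR), the direction of TUBB, and reads of either may be counted for the other. TUBA5P (−0.57, adjusted p = 0.12 by edgeR) and TUBB2BP1 (0.48, adjusted p = 0.24 by edgeR) were not called. TTC5, which triggers decay of tubulin mRNAs, had 27.3 and 22.5 CPM in control and 20.6 and 20.2 CPM in knockdown libraries (adjusted p = 0.216 by edgeR), and SCAPER, which acts with it, 24.2 and 27.3 CPM against 28.7 and 27 CPM (adjusted p = 0.583 by edgeR). SVBP, the small partner that VASH1 and VASH2 need, had 8.65 and 8.43 CPM in control and 4.78 and 7.16 CPM in knockdown libraries (adjusted p = 0.166 by edgeR). TPGS1, another subunit of the polyglutamylase with TTLL1 and TPGS2, had 9.05 and 9.49 CPM in control and 15.1 and 49.4 CPM in knockdown libraries, far apart within the knockdown group (adjusted p = 0.0489 by edgeR).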
